A study of Mus musculus with 10 samples.

Results

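The 8 genes described here encode the colony-stimulating factors of the mouse and their receptors. They are 4 ligand genes (Csf1, Il34, Csf2 and Csf3) and 4 receptor genes (Csf1r, Csf2ra, Csf2rb and Csf3r), chosen by name as the family and found as 8 of the 55357 gene identifiers counted. They were followed in 2 settings, 4 libraries of cultured peritoneal macrophages and 6 hearts, all from male mice on a C57BL/6 background. The tested macrophages were Cd163-/- (n = 2), and their controls came from wild-type mice, littermates per the labels (n = 2). CD163 is the macrophage scavenger receptor for haptoglobin-haemoglobin complexes. Both groups were collected 3 days after thioglycolate, an irritant that draws cells into the peritoneal cavity. They were selected by adherence and kept for 48 h in 100 nM dexamethasone, a synthetic glucocorticoid, so the controls carried the drug too. The hearts were all Cd163-/-, from mice given the mouse cytokine interleukin-10 as a recombinant protein (IL-10, n = 3) or saline (n = 3). IL-10, which dampens inflammation, was injected subcutaneously, 50 µg/kg/day, on set days between day 0 and day 27. The design text describes transverse aortic constriction, which narrows the aorta and loads the left ventricle, at 8 weeks of age, but which surgery each heart had is not in its labels. No wild-type heart and no macrophage without dexamethasone was analysed here, and no heart was labelled as sham-operated. The labels do not tell whether replicates are different animals or cultures, so the p-values reflect the spread among libraries that may be technical.

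M-CSF, the product of Csf1, and interleukin-34 are separate ligands of the tyrosine kinase receptor CSF1R, which keeps monocytes and macrophages alive and dividing. GM-CSF, the product of Csf2, binds a receptor made of a specific alpha chain (Csf2ra) and a beta chain (Csf2rb) that is shared with the interleukin-3 and interleukin-5 receptors and signals through JAK2 and STAT5. G-CSF, the product of Csf3, acts on the receptor encoded by Csf3r and drives the production and release of neutrophils. In tissue, fibroblasts, endothelial cells and mesothelial cells make M-CSF, and activated macrophages and stromal cells make GM-CSF and G-CSF.

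Total counts were 17.2 to 18.6 M in Cd163-/- and 16.7 to 17.9 M in wild-type macrophages (M for mega), and 14.1 to 14.8 M in IL-10 and 13.5 to 14.9 M in saline hearts. Mitochondrial transcripts took 2.43% to 3.12% of all counts in macrophages and 33.7% to 39.4% in hearts. Levels are in CPM (counts per M after TMM scaling of library sizes) as mean ± SD, and fold changes are log2 with their standard error (SE). Adjusted p-values are from edgeR's quasi-likelihood test over all genes of a table, and called means below 0.05. Cd163 itself held 9 and 14 counts in Cd163-/- and 352 and 205 in wild-type macrophages, a log2 fold change of -4.79 (adjusted p = 0.0013). It held 37, 43 and 34 counts in IL-10 and 45, 47 and 57 in saline hearts, so the Cd163-/- libraries were not at 0. The sources used here do not say which part of the gene was deleted. Summed cardiomyocyte markers were at 41730 to 53880 CPM in the hearts and 36.2 to 71.8 CPM in the macrophages, and summed macrophage markers at 34580 to 42290 CPM in the macrophages and 777 to 1320 CPM in the hearts.

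In Cd163-/- macrophages, 5 of the 8 genes fell and none rose: the ligand genes Csf3 and Csf2 and the receptor genes Csf3r, Csf2rb and Csf2ra. Csf1, Il34 and Csf1r did not pass the test, though Il34 had an unadjusted p under 0.05, which 41.2% of all genes tested had. Across all 13861 genes tested, 26.4% were called, 13.1% higher and 13.3% lower in Cd163-/- macrophages. That even split depends on the scaling: 49.6% of the called genes were higher here, against 62.2% with upper-quartile scaling and 68.6% with library size alone, which move the median of all genes to 0.13 and 0.19. All 8 genes passed the filter on low counts. Csf2 and Csf3 passed it only through their wild-type counts, so once tested they could show only a fall. The 5 falls, the median and the count of groups without overlap include both. The median log2 fold change of the 8 was -1.02, against 0.01 for all genes tested. It lies between Csf2rb (-1.46) and Csf2ra (-0.59), with Csf2 and Csf3 both counted below it. Placing Csf2 at its bound could not move it, because Csf2 stays below Csf2rb either way, so the bound is no check on it. The same 5 genes fell under both of those scalings. The groups did not overlap for 7 of the 8, lower in 6 and higher in 1, where 69.4% of all genes tested had groups that did not overlap. All 5 genes stayed lower when any 1 library was left out. Their log2 fold changes moved little for Csf2ra (-0.64 to -0.54) and Csf2rb (-1.54 to -1.39) and more for Csf3r. Some calls were lost, but a fit with 1 library in a group has less power, so a lost call does not show that 1 library carried the fall. Without Cd163-/- replicate 1, Csf3 and Csf2rb kept their calls and Csf2, Csf2ra and Csf3r lost theirs. Without Cd163-/- replicate 2, Csf2 kept its call as well. Far fewer genes were called in all in both of these fits, so 26.4% is not their background.

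**Figure D1:**
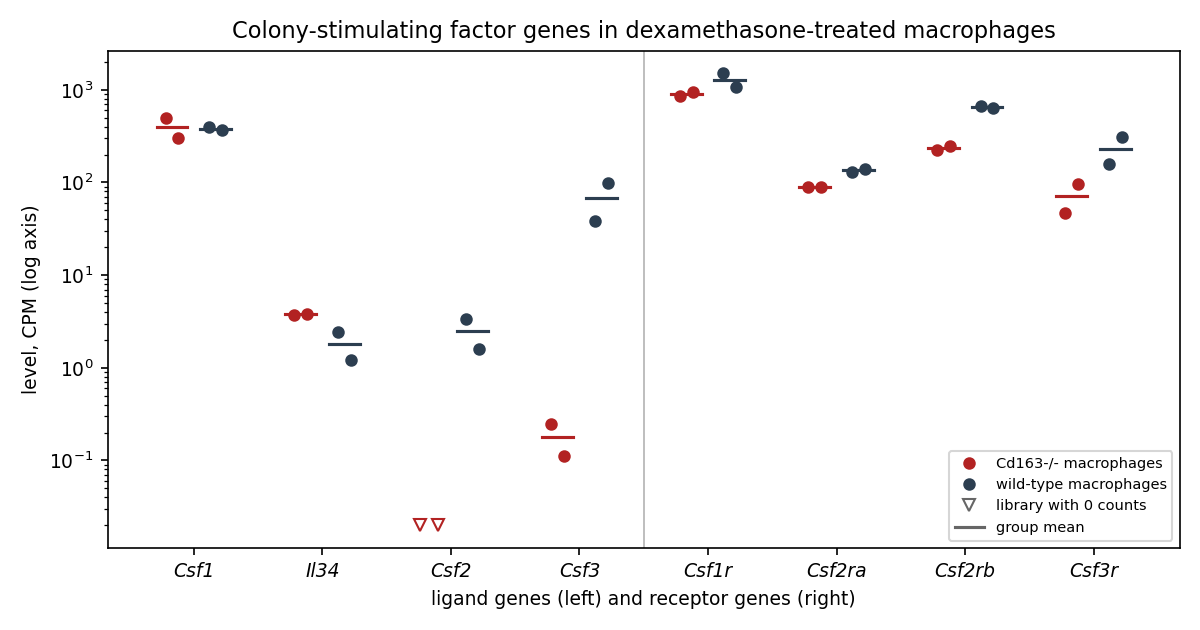
Levels of the 8 genes in single macrophage libraries (CPM, log axis), Cd163-/- left of wild type for each gene. Points are libraries, bars are group means and open triangles mark libraries with 0 counts. Csf3 lies at 0.111 and 0.249 CPM in Cd163-/- libraries and at 38.4 and 98.0 CPM in wild-type libraries.

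Csf3, which encodes G-CSF (ENSMUSG00000038067, chromosome 11, 98701263 to 98703629, plus strand), fell furthest of the members with counts in both groups. It held 5 and 2 counts in Cd163-/- and 646 and 1542 counts in wild-type macrophages. Both wild-type libraries were far above both Cd163-/- libraries, and 1 of the Cd163-/- libraries was below the level that 3 counts give, which lay between 0.149 and 0.191 CPM. Its means were 0.18 ± 0.098 CPM in Cd163-/- and 68.2 ± 42.2 CPM in wild-type macrophages. The log2 fold change was -8.48 (SE 0.71, adjusted p = 0.00151), the ninth largest fall by fold among all genes tested. Leaving out any 1 library kept the call, with log2 fold changes between -9.16 and -7.66.

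Csf2, which encodes GM-CSF (ENSMUSG00000018916, chromosome 11, 54247271 to 54249667, minus strand), had 0 counts in both Cd163-/- libraries and 57 and 25 counts in wild-type macrophages. The wild-type levels were 3.39 and 1.59 CPM, so the gene was low there too. Set against a floor of 3 counts over the group, Csf2 was at least 31.9-fold lower in Cd163-/- macrophages, or -5.00 on the log2 scale. The test gave an adjusted p of 0.0083 by edgeR, which became 0.0567 without Cd163-/- replicate 1. An antisense transcript, Gm12223, covers 96 bases of its exons, or 12%, and the library kit does not mark the strand.

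Csf1, the gene for M-CSF (ENSMUSG00000014599, chromosome 3, 107741048 to 107760469, minus strand), was the most abundant ligand gene per length of exon in both macrophage groups. It held 9990 and 5474 counts in Cd163-/- and 6621 and 5810 in wild-type macrophages. The Cd163-/- libraries lay on either side of both wild-type libraries. Its level was 401 ± 137 CPM in Cd163-/- and 381 ± 17 CPM in wild-type macrophages, with a log2 fold change of 0.07 (SE 0.24, adjusted p = 0.847). Without Cd163-/- replicate 1, the higher library, the sign turned to -0.33.

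Il34 (ENSMUSG00000031750, chromosome 8, 110741829 to 110805924, minus strand), the gene of the second CSF1R ligand, held 75 and 69 counts in Cd163-/- and 41 and 19 in wild-type macrophages. Both Cd163-/- libraries were above both wild-type libraries. The means of 3.78 ± 0.069 CPM in Cd163-/- and 1.82 ± 0.87 CPM in wild-type macrophages gave a log2 fold change of 1.05 (SE 0.38) that missed the threshold (adjusted p = 0.0899). It passed without wild-type replicate 1 (1.64, adjusted p = 0.0234) and when no filter on low counts was set (adjusted p = 0.0106). Per length of exon, Il34 made up 1.98% and 3.29% of the summed Csf1 and Il34 levels in Cd163-/- and 1.64% and 0.874% in wild-type macrophages. Antisense transcripts cover 75 and 22 bases of its exons, 3.83% and 1.12%.

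Markers of other cell types that can make these ligands also differed between the macrophage groups. Over all genes tested, 13.1% rose and 13.3% fell. Of 9 fibroblast markers tested, 7 rose and 1 fell in Cd163-/- macrophages (4 rose and none fell without Cd163-/- replicate 1, and likewise without replicate 2), and the list summed to 3978 to 5270 CPM in Cd163-/- and 1803 to 2528 CPM in wild-type libraries. Col1a1, a collagen chain gene, was at 1058 and 948 CPM in Cd163-/- and 227 and 483 CPM in wild-type libraries. Of 10 mesothelial markers, 7 rose (1 without Cd163-/- replicate 1 and 4 without replicate 2), with sums of 333 to 427 CPM in Cd163-/- and 105 to 162 CPM in wild-type libraries. The mesothelial gene Upk3b held 2793 and 1999 counts in Cd163-/- and 1081 and 665 in wild-type libraries. Endothelial markers summed to 50.7 to 62.6 CPM in Cd163-/- and 66.4 to 69.5 CPM in wild-type libraries. In bulk RNA, fewer cells of a type and less RNA per cell cannot be told apart, and the part of these cells in the ligand levels was not tested.

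Of the receptor genes, Csf2rb, the shared beta chain (ENSMUSG00000071713, chromosome 15, 78325752 to 78353847, plus strand), gave the firmest fall. It held 4552 and 4499 counts in Cd163-/- and 11387 and 9927 counts in wild-type macrophages. The libraries of each group were close together and the groups far apart, at 238 ± 16 CPM in Cd163-/- and 654 ± 32 CPM in wild-type macrophages. The log2 fold change of -1.46 (SE 0.14, adjusted p = 0.00235) stayed between -1.54 and -1.39, with adjusted p of at most 0.0497, when any 1 library was left out.

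Csf2ra, the GM-CSF-specific alpha chain (ENSMUSG00000059326, chromosome 19, 61223957 to 61228429, minus strand), fell less. Its counts were 1789 and 1619 in Cd163-/- and 2186 and 2195 in wild-type macrophages, or 89.5 ± 0.58 CPM in Cd163-/- against 135 ± 6.8 CPM in wild-type macrophages. Both Cd163-/- libraries were below both wild-type libraries. The log2 fold change was -0.59 (SE 0.11, adjusted p = 0.016). The call was lost without Cd163-/- replicate 1 (adjusted p = 0.123) and without replicate 2 (adjusted p = 0.0965). Per length, the beta chain stood at 1.00 and 1.10 times the alpha chain in Cd163-/- libraries and at 2.06 and 1.78 times in wild-type libraries, so the ratio of the chains was lower in both Cd163-/- libraries.

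Csf3r, the G-CSF receptor (ENSMUSG00000028859, chromosome 4, 126024550 to 126044440, plus strand), held 940 and 1724 counts in Cd163-/- and 2644 and 4842 counts in wild-type macrophages. The groups did not overlap, but the libraries of each group were far apart, at 46.8 and 95.8 CPM in Cd163-/- and 157 and 308 CPM in wild-type libraries. Its log2 fold change was -1.71 (SE 0.43, adjusted p = 0.0349). It was no longer called without Cd163-/- replicate 1 (-1.28, adjusted p = 0.168) or replicate 2 (-2.32, adjusted p = 0.0542). Neutrophils carry this receptor, and of the 6 neutrophil markers tested 4 fell and 1 rose in Cd163-/- macrophages (1 fell without Cd163-/- replicate 1, and likewise without replicate 2). Over all genes tested, 13.3% fell and 13.1% rose. The list summed to 67.5 to 81.0 CPM in Cd163-/- and 140 to 557 CPM in wild-type libraries. Its wild-type means were highest for Lcn2 (239 CPM) and Mmp9 (67.3 CPM). Mmp8, a neutrophil collagenase, was the 1 that rose, at 57.7 and 64.8 CPM in Cd163-/- and 25.7 and 23.5 CPM in wild-type libraries. Lcn2, a secreted siderophore-binding protein, fell, with 25 and 24 counts in Cd163-/- and 738 and 6820 in wild-type libraries. By limma-voom it did not pass (adjusted p = 0.067). Mmp9, a gelatinase, fell to 4.63 and 11.1 CPM in Cd163-/-, against 59.7 and 74.9 CPM in wild-type libraries. S100a8, a calcium-binding protein of neutrophils and monocytes, held 55 and 39 counts in Cd163-/- and 144 and 329 in wild-type libraries. Camp, the cathelicidin gene, had none in Cd163-/- and 11 and 14 counts in wild-type libraries. It passed the filter on low counts only through its wild-type counts, so once tested it could show only a fall. The 4 falls include it. Mmp8 and Mmp9 were called without any 1 library. The neutrophil-defining genes Ly6g, S100a9, Cxcr2 and Mpo held at most 1 count in any macrophage library, and Retnlg and Stfa2l1 none. The part of neutrophils in the level of Csf3r in these libraries was not tested.

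Csf1r, the receptor of M-CSF and interleukin-34 (ENSMUSG00000024621, chromosome 18, 61100598 to 61132149, plus strand), held 17137 and 16990 counts in Cd163-/- and 25352 and 16754 in wild-type macrophages. In CPM both Cd163-/- libraries (854 and 944) were below both wild-type libraries (1506 and 1065). The log2 fold change of -0.52 (SE 0.22) did not pass (adjusted p = 0.133). Without wild-type replicate 2 it was -0.75 and passed (adjusted p = 0.013), and it passed with no filter (adjusted p = 0.02). Adgre1, the F4/80 macrophage marker, was at 645 and 599 CPM in Cd163-/- and 952 and 1220 CPM in wild-type libraries, so the count of Csf1r per count of Adgre1 was 1.32 and 1.58 in Cd163-/- and 1.58 and 0.873 in wild-type libraries. Exons of Hmgxb3 on the opposite strand cover 873 bases of the Csf1r exons, or 15.1%, and reads there cannot be assigned without strand.

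Per length of exon (count per kb per M counts, exons of GENCODE M21), Csf1r was the most abundant of the 8 genes in both macrophage groups, at 156 ± 11 in Cd163-/- and 223 ± 54 in wild-type macrophages. The order below it differed. In Cd163-/- macrophages Csf1 (75.9 ± 25.9) was followed by Csf2rb (32.8 ± 2.25), Csf2ra (31.2 ± 0.20), Csf3r (19.8 ± 9.6), Il34 (1.93 ± 0.035), Csf3 (0.128 ± 0.069) and Csf2 at 0, and of these neighbours only Csf2rb and Csf2ra overlapped between libraries. Wild-type macrophages had Csf2rb (89.8 ± 4.43) second, then Csf1 (72.2 ± 3.23), Csf3r (64.4 ± 29.5), Csf3 (48.3 ± 29.8), Csf2ra (46.9 ± 2.37), Csf2 (3.11 ± 1.59) and Il34 (0.93 ± 0.44). There Csf1, Csf3r and Csf3 each overlapped with the next in order. Csf3 was thus 7th of 8 in Cd163-/- macrophages, and in wild-type macrophages 5th of 8, overlapping Csf3r and Csf2ra and below Csf1r and Csf2rb.

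**Figure D2:**
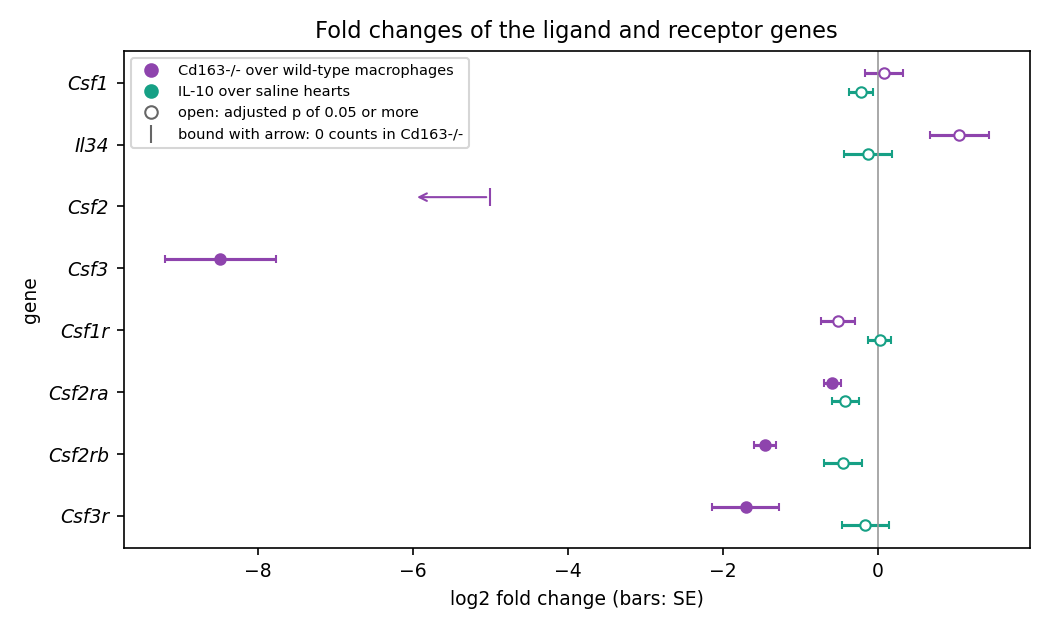
Log2 fold changes of the 8 genes (bars are SE), Cd163-/- over wild-type macrophages above IL-10 over saline hearts for each gene. Filled points passed an adjusted p of 0.05, and the tick with an arrow gives the bound for Csf2, -5.00. Csf2 and Csf3 have no heart value because they were not tested there.

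The promoters of 3 receptor genes that fell, from 250 bases before to 50 bases after the RefSeq start of transcription, are printed to show their PU.1-type motif. PU.1 is the myeloid transcription factor encoded by Spi1, known to bind the promoters of the CSF receptors. Capitals mark GAGGAA, or TTCCTC where it lies on the other strand. Sequences are those of RefSeq on GRCm38.p6, written 5′ to 3′ on the strand of the gene, and were matched for 4 of the 8 genes (Csf1, Csf2, Csf3r and Csf2ra) and for Csf2rb2.
Csf3r (chr4:126024409-126024708, plus strand): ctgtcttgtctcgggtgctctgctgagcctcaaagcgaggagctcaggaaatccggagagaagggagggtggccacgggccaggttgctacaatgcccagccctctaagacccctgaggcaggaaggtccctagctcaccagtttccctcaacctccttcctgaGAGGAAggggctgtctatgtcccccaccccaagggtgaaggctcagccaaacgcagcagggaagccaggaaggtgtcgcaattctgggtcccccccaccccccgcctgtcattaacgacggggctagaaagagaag
Csf2ra (chr19:61228369-61228668, minus strand): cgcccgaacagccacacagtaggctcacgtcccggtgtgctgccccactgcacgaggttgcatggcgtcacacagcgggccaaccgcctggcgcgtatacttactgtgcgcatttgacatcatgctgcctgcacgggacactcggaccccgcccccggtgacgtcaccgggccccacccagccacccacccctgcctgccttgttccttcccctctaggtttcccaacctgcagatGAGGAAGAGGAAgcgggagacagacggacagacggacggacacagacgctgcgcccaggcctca
Csf2rb2 (chr15:78305672-78305971, minus strand): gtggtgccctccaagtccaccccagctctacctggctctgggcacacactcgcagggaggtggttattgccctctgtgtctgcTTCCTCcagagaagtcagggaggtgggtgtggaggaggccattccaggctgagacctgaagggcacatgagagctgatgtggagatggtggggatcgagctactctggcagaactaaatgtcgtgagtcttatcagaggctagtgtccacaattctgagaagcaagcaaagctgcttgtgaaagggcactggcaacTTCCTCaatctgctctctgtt
The motif, searched on both strands, is in 28.3% of 32851 RefSeq promoter windows of the same length. With positions counted from the RefSeq start, it occurs once in the Csf3r window, at -86, and in tandem in the Csf2ra window, at -14 and -8. The Csf2rb2 window holds it on the other strand, at -167 and 30. The windows of the ligand genes Csf1 and Csf2 hold none. The RefSeq start of Csf3r lies 109 bases, that of Csf2ra 11 bases and that of Csf2 232 bases from the start in GENCODE M21. The Csf2 window lies wholly upstream of its GENCODE start. The bases next to that start were therefore not searched for any of the motifs. An AP-1 motif, TGANTCA (both strands, 7.81% of all windows), is in none of the 5 windows, and the single arm of a glucocorticoid response element, AGAACA (both strands, 19% of all windows), is in that of Csf1 alone, at -124. An NF-kB motif (both strands, 1.47% of all windows) is in those of Csf1, at -154, and Csf3r, at -129, and the octamer motif (both strands, 1.74% of all windows) is in none of the 5. A match of letters is a description and was not tested for binding.

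Over all genes tested in macrophages, 13.3% fell and 13.1% rose. Genes that share chains or ligands with the family gave 2 falls and 1 rise among 6 tested of 11 in Cd163-/- macrophages, with a median log2 fold change of -0.09. Without Cd163-/- replicate 1 none of these was called, and without replicate 2 only 1 fell. Csf2rb2, the mouse beta chain specific to interleukin-3, lies beside Csf2rb on chromosome 15 (78282507 to 78305721). Its counts were 4193 and 4907 in Cd163-/- and 8283 and 6206 in wild-type macrophages, a log2 fold change of -0.88 (SE 0.19, adjusted p = 0.0235), lost without Cd163-/- replicate 1 (adjusted p = 0.168) or replicate 2 (adjusted p = 0.0666). The copies are alike, and 892 stretches of 50 bases are shared by their exons, 12.3% of those of Csf2rb and 18.4% of those of Csf2rb2, so reads can be split between them. Csf2rb took 52.0% and 47.8% of the summed counts of the pair in Cd163-/- and 57.9% and 61.5% in wild-type macrophages. Summed, the pair fell by 1.20 on the log2 scale (adjusted p = 0.00758).

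Sdc1, a heparan sulphate proteoglycan reported to bind interleukin-34, held 1815 and 1495 counts in Cd163-/- and 3522 and 4617 in wild-type macrophages, with a log2 fold change of -1.54 (SE 0.19, adjusted p = 0.0044, and 0.0557 without Cd163-/- replicate 1). Ptprz1, the other reported interleukin-34 receptor, held 22 and 13 counts in Cd163-/- and 4 and 6 in wild-type macrophages and did not pass (adjusted p = 0.0697). Kitl, the gene for stem cell factor and made by stromal cells, rose with 791 and 458 counts in Cd163-/- and 215 in each of the wild-type libraries. Its log2 fold change was 1.30 (SE 0.23, adjusted p = 0.0128, and 0.059 without Cd163-/- replicate 1), beside the higher fibroblast and mesothelial markers given above. The part of stromal cells in the level of Kitl was not tested. Kit, the receptor of stem cell factor, was at 5 and 5 counts in Cd163-/- and 6 and 4 in wild-type libraries. Il3ra, the interleukin-3 receptor alpha chain, held 539 and 446 counts in Cd163-/- and 527 and 441 in wild-type macrophages (adjusted p = 0.303). Il5ra held 1 and 2 counts in Cd163-/- and 1 and 2 in wild-type libraries, and Il3, Il5 and Flt3 had no count in any macrophage library. Flt3l, the ligand of FLT3, did not pass (log2 fold change 0.03, adjusted p = 0.958), and 22.1% of its exon bases are shared with Gm45713.

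Of 26 genes that carry the signal below these receptors, 9 fell and 1 rose in Cd163-/- macrophages, with a median log2 fold change of -0.30 (3 fell without Cd163-/- replicate 1 and 4 without replicate 2). The Src-family kinase gene Fgr fell (-3.19, SE 0.19, adjusted p = 0.000621) and kept its call without any 1 library. Jak2, the kinase bound to the GM-CSF receptor beta chain, was at 55.3 CPM in Cd163-/- and 245 CPM in wild-type macrophages (-2.15, SE 0.27, adjusted p = 0.00463, and 0.0633 without Cd163-/- replicate 1). Inpp5d, which encodes the inhibitory lipid phosphatase SHIP, was the 1 that rose (1.24, adjusted p = 0.00281, called without any 1 library). With library size alone or upper-quartile scaling a second gene of the list rose. Over all genes tested, 13.3% fell and 13.1% rose.

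Of 13 STAT5 and feedback genes, 4 fell and 2 rose (median -0.24), where 13.3% of all genes tested fell and 13.1% rose. Without Cd163-/- replicate 1 only 1 fell and none rose, and 2 fell without Cd163-/- replicate 2 or wild-type replicate 2. Socs3, a feedback inhibitor of cytokine receptors that include the G-CSF receptor, was at 22.2 CPM in Cd163-/- and 552 CPM in wild-type macrophages (-4.63, SE 0.52, adjusted p = 0.00349, and 0.0557 without Cd163-/- replicate 1). Pim1, a kinase induced by STAT5, fell by 1.91 (adjusted p = 0.00207) and was called without any 1 library. Socs2 (1.41, adjusted p = 0.0117) and Ccnd2 (1.75, adjusted p = 0.0223), both also STAT5 targets, rose, and neither did without Cd163-/- replicate 1 (adjusted p = 0.0918 and 0.0942). Cish, a classical STAT5 target that was named after its value was seen, was low and nearly equal, at 2.96 CPM in Cd163-/- and 2.95 CPM in wild-type macrophages (adjusted p = 0.988).

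Of 11 transcription factor genes that act in myeloid lineages, 5 fell and 4 rose (median -0.59). Over all genes tested, 13.3% fell and 13.1% rose. Without Cd163-/- replicate 1, 3 fell and 2 rose, without replicate 2, 2 fell and 3 rose, and with library size alone 3 fell and 4 rose. Ets2, a factor that CSF1R signalling is known to activate, fell by 2.59 (adjusted p = 0.000438) and Cebpb by 1.40 (adjusted p = 0.00259). Cebpa (1.91, adjusted p = 0.00113), a driver of granulocyte and monocyte development, and Maf (1.52, adjusted p = 0.00222), which limits macrophage self-renewal, rose. All 4 kept their calls without any 1 library. Spi1, the PU.1 gene, named after its value was seen, was at 212 CPM in Cd163-/- and 392 CPM in wild-type macrophages (-0.89, SE 0.13, adjusted p = 0.00714, but 0.091 without Cd163-/- replicate 1 and 0.0673 without replicate 2).

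Genes that GM-CSF is known to induce in myeloid cells did not move together. Of 10 tested of 16, 2 rose and none fell (median -0.04). Of all genes tested 26.4% were called, 13.1% higher and 13.3% lower, so these calls are not more than that share. The counts changed with the setting. None rose without Cd163-/- replicate 2, and 1 rose without Cd163-/- replicate 1. Without wild-type replicate 1 there were 3 that rose and 2 that fell, without wild-type replicate 2 there was 1 each way, with no filter 4 rose and 3 fell, and by DESeq2 1 fell. The pair was Pparg, the nuclear receptor that GM-CSF induces in alveolar macrophages (1.07, adjusted p = 0.0174, and 0.0716 without Cd163-/- replicate 2), and Irf4 (1.68, adjusted p = 0.0305, and up to 0.156 without Cd163-/- replicate 1 or 2 or wild-type replicate 2). Of 16 macrophage markers, 4 rose and 2 fell (1 rose and 1 fell without Cd163-/- replicate 1, 2 rose and 1 fell without replicate 2, and 4 rose and 1 fell with library size alone). The list summed to 34580 to 36480 CPM in Cd163-/- and 35120 to 42290 CPM in wild-type libraries. Cd14, the lipopolysaccharide co-receptor, fell, at 77.4 and 90.6 CPM in Cd163-/- and 726 and 967 CPM in wild-type libraries. Adgre1, given above, was the other that fell. Among those that rose, Cx3cr1 had means of 71 CPM in Cd163-/- and 1.2 CPM in wild-type macrophages. Mrc1, which also rose, had means of 724 CPM in Cd163-/- and 213 CPM in wild-type macrophages. The 1 lymphocyte marker tested, Il7r, did not pass (adjusted p = 0.176), and 1 of 3 dendritic cell markers rose (none without Cd163-/- replicate 2) and none fell (1 with no filter or without wild-type replicate 1).

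**Figure D3:**
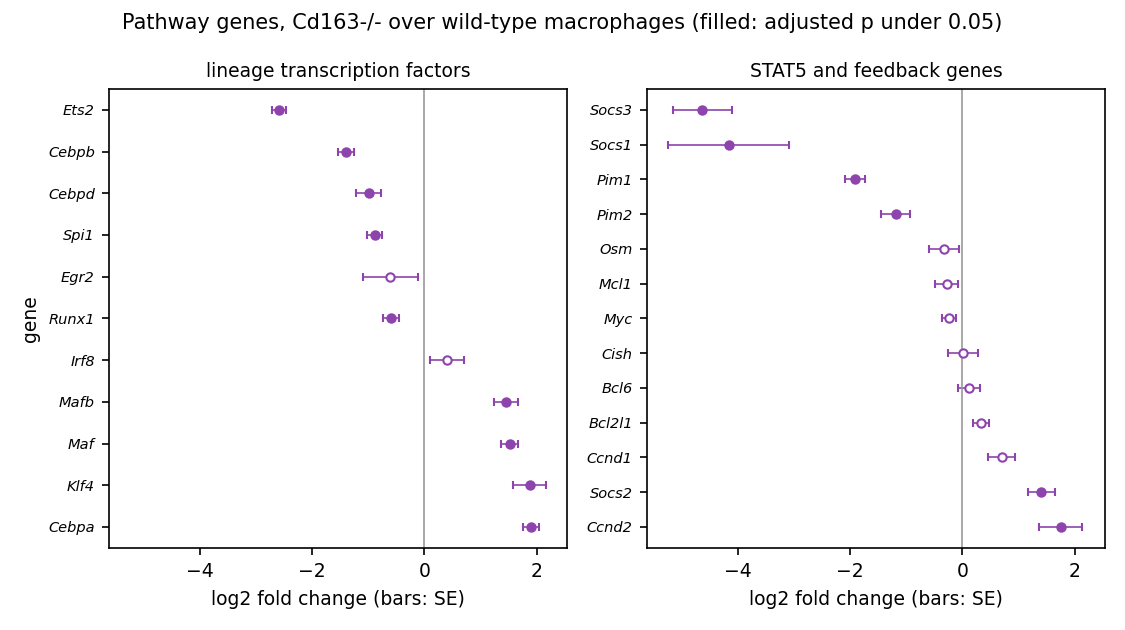
Log2 fold changes (bars are SE), Cd163-/- over wild-type macrophages, of the tested genes of 2 lists, each list in its own panel. Filled points had an adjusted p under 0.05. Among the transcription factors 5 of 11 fell and 4 rose, and among STAT5 and feedback genes 4 of 13 fell and 2 rose.

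In the hearts none of the 8 genes was called between IL-10 and saline. Of the 6 that passed the filter on low counts, 0 were called by edgeR, by DESeq2 or by limma-voom, and 1, Csf2ra, had an unadjusted p under 0.05. Among all 13718 genes tested 13.6% were called, 6.86% higher and 6.70% lower in IL-10 hearts (50.6% of the calls were higher, against 39.0% with upper-quartile scaling and 35.6% with library size alone), and 28.3% had an unadjusted p under 0.05. The median log2 fold change of the 6 was -0.19, against -0.01 for all genes tested. Csf2ra was also the only one whose groups did not overlap, as 31.6% of all genes tested did not.

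**Figure D4:**
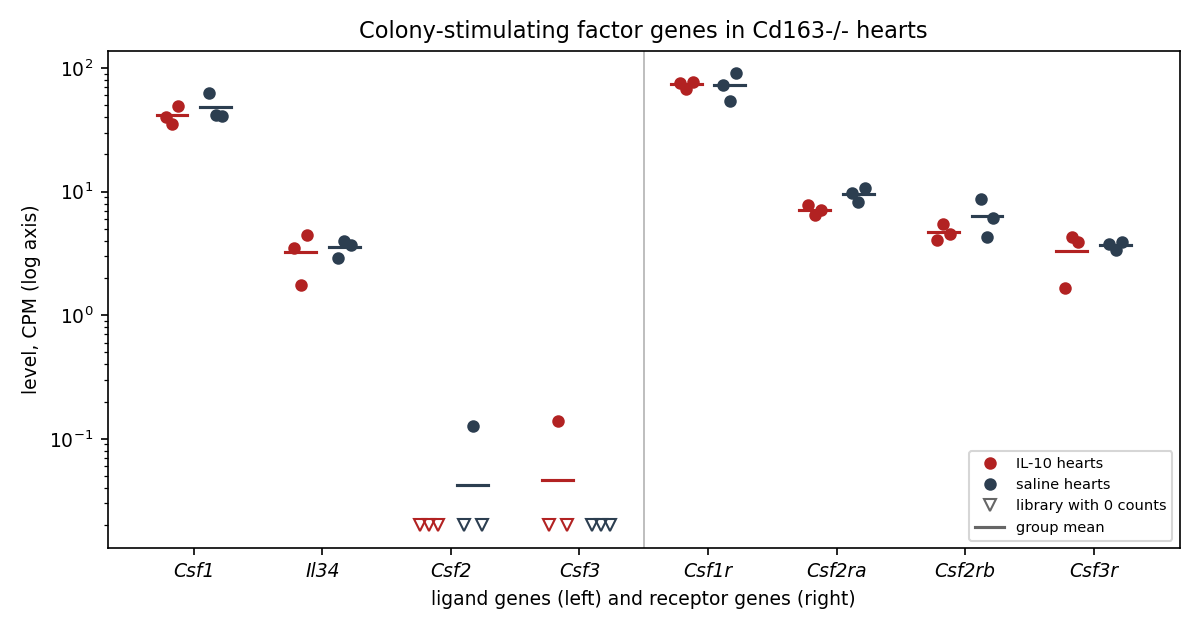
Levels of the 8 genes in single hearts (CPM, log axis), IL-10 left of saline for each gene. Points are hearts, bars are group means and open triangles mark hearts with 0 counts. The points of the groups overlap for every gene but Csf2ra, whose means are 7.12 CPM in IL-10 and 9.56 CPM in saline hearts.

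Csf3 and Csf2 were almost silent in the hearts. Csf3 had 0, 0 and 2 counts in IL-10 hearts and none in saline hearts, and Csf2 none in IL-10 hearts and 0, 0 and 2 in saline hearts. All are at or under the floor of 3 counts, which lies between 0.192 and 0.22 CPM in a heart, so no difference was detectable at this depth.

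Csf1 held 577, 483 and 707 counts in IL-10 hearts and 857, 574 and 643 in saline hearts. Saline replicate 1 was the highest of the 6 and the other hearts were mixed. The means were 41.7 ± 7.3 CPM in IL-10 and 48.6 ± 12.2 CPM in saline hearts (log2 fold change -0.22, SE 0.16, adjusted p = 0.397), and without saline replicate 1 the value was 0.01. Il34 held 51, 24 and 63 counts in IL-10 hearts and 40, 55 and 58 in saline hearts, with IL-10 replicate 2 the lowest (-0.13, adjusted p = 0.821). Without IL-10 replicate 2 its sign turned to 0.16. Per length, Il34 was 19.2%, 11.8% and 19.4% of the summed Csf1 and Il34 level in IL-10 hearts and 11.2%, 20.5% and 19.6% in saline hearts, with no order between the groups.

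Csf1r held 1096, 921 and 1104 counts in IL-10 hearts and 994, 742 and 1412 in saline hearts. The saline hearts spanned all the IL-10 hearts. Its level of 73.6 ± 5.3 CPM in IL-10 and 72.4 ± 18.2 CPM in saline hearts gave a log2 fold change of 0.02 (SE 0.15, adjusted p = 0.942), whose sign turned with upper-quartile scaling, with library size alone, when saline replicate 2 was left out (-0.15) and when IL-10 replicate 3 was.

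The gene whose pattern over the 6 hearts was closest to that of Csf1r, among 9648 protein-coding genes at 5 CPM or more, was Adgre1. The likeness is the root mean square difference of log2 CPM after each gene is centred on its own mean, 0.047 for Adgre1, 0.068 for Prex1 and 0.076 for Fads1, against a median of 0.29 over all genes compared. Csf1r counts per count of Adgre1 were 1.99, 2.00 and 1.94 in IL-10 hearts and 2.07, 2.13 and 1.95 in saline hearts, a narrow range while Adgre1 itself ran between 25.4 and 46.3 CPM. The macrophage marker list summed to 1049 to 1217 CPM in IL-10 and 777 to 1320 CPM in saline hearts, and 2 of its 16 genes fell (5 when saline replicate 2 was left out, 1 when IL-10 replicate 1 or 2 or saline replicate 1 or 3 was, and 1 by limma-voom). Cx3cr1, the fractalkine receptor, fell by 1.01 (adjusted p = 0.00279) in IL-10 hearts, a call kept without any 1 heart. For Csf1 the closest genes were Senp1 (0.085), Lpar6 (0.092) and Dkc1 (0.098), for Csf2ra Marcks (0.034), Fam129a (0.041) and Ten1 (0.046), and for Csf2rb Il1rap (0.032), Rras2 (0.119) and Tor1a (0.125). These are descriptions over 6 hearts that share their groups and scaling.

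**Figure D5:**
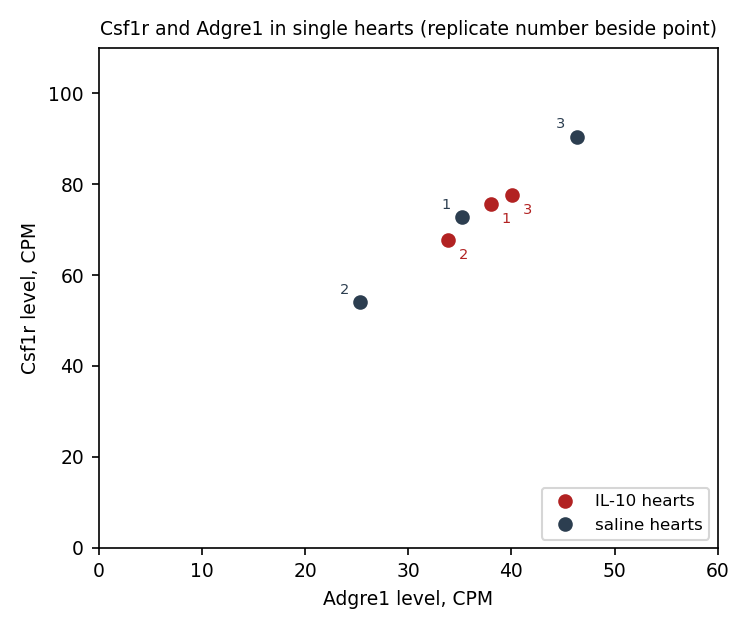
Csf1r level against Adgre1 level in the 6 hearts (both in CPM, axes starting at 0), with the replicate number beside each point. The IL-10 hearts lie between the lowest saline heart (Adgre1 at 25.4 CPM) and the highest (46.3 CPM).

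Neither GM-CSF receptor gene passed the test in hearts. Csf2ra held 113, 88 and 101 counts in IL-10 hearts and 134, 113 and 166 in saline hearts, all 3 IL-10 hearts below all 3 saline hearts in CPM. Its log2 fold change was -0.43 (SE 0.17, adjusted p = 0.118). Csf2rb held 59, 74 and 64 counts in IL-10 hearts and 120, 59 and 95 in saline hearts, with saline replicate 2 among the IL-10 hearts (-0.45, SE 0.25, adjusted p = 0.255). Without saline replicate 1 its log2 fold change was -0.16 (adjusted p = 0.782). Csf3r, at 24, 58 and 56 counts in IL-10 hearts and 51, 46 and 61 in saline hearts, was low in IL-10 replicate 1 alone (-0.16, adjusted p = 0.775), without which its sign turned to 0.17. Of 5 neutrophil markers tested in hearts, only Lcn2 was called, and it rose (1.09, adjusted p = 0.00598, but 0.0555 without IL-10 replicate 2 and 0.0549 by DESeq2). The list summed to 42.8 to 105 CPM in IL-10 and 35.9 to 42.3 CPM in saline hearts. Most of that was Lcn2, with means of 66 CPM in IL-10 and 31 CPM in saline hearts. S100a9 had means of 2.66 CPM in IL-10 and 2.00 CPM in saline hearts and did not pass. The part of neutrophils in Csf3r was not tested.

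Per length, the order of the 6 tested genes in the hearts was the same in both groups. In IL-10 hearts it ran Csf1r (12.8 ± 0.92 per kb per M), Csf1 (7.89 ± 1.38), Csf2ra (2.48 ± 0.23), Il34 (1.65 ± 0.69), Csf3r (0.91 ± 0.39) and Csf2rb (0.64 ± 0.096). In saline hearts it ran Csf1r (12.6 ± 3.15), Csf1 (9.20 ± 2.32), Csf2ra (3.33 ± 0.42), Il34 (1.81 ± 0.29), Csf3r (1.02 ± 0.079) and Csf2rb (0.88 ± 0.31). Csf2ra, Il34 and Csf3r each overlapped with the next among IL-10 hearts, and Csf1r with Csf1 and Csf3r with Csf2rb among saline hearts. The beta chain stood at 0.206, 0.332 and 0.25 times the alpha chain in IL-10 hearts and 0.353, 0.206 and 0.226 times in saline hearts. These ratios, taken within a library, were below that of any macrophage library, which was not tested. Hearts are a mixed tissue, Csf2rb held only 59 to 120 counts in a heart, and it shares stretches with Csf2rb2.

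Among the related genes in hearts, 1 of 7 tested fell and none rose (median -0.43), where 6.70% of all genes tested fell and 6.86% rose. Il3ra, the interleukin-3 receptor alpha chain, held 45, 33 and 51 counts in IL-10 hearts and 69, 73 and 84 in saline hearts. Its level was 3.04 ± 0.58 CPM in IL-10 and 5.25 ± 0.18 CPM in saline hearts, with no overlap (log2 fold change -0.79, SE 0.24, adjusted p = 0.0362). The call was lost without any 1 heart except IL-10 replicate 3 (adjusted p of up to 0.143). Csf2rb2 held 80, 52 and 99 counts in IL-10 hearts and 125, 71 and 120 in saline hearts (-0.43, adjusted p = 0.271). Sdc1 (-0.46, adjusted p = 0.135) passed only without saline replicate 2 (-0.64, adjusted p = 0.0289). Kitl held 860, 880 and 1069 counts in IL-10 hearts and 777, 880 and 811 in saline hearts (0.20, adjusted p = 0.284), and Kit, Flt3l and Flt3 did not pass (adjusted p = 0.251, 0.511 and 0.8). Ptprz1 held 6, 6 and 5 counts in IL-10 hearts and 5, 4 and 3 in saline hearts and was not tested, and Il3 and Il5 had none.

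Of the 11 myeloid transcription factor genes in hearts, 3 rose in IL-10 hearts and none fell (median 0.00; 5 rose without saline replicate 3, 1 fell without IL-10 replicate 1, with upper-quartile scaling or with no filter, and 2 fell without saline replicate 2). They were Cebpb (37.9 CPM in IL-10 and 17.3 CPM in saline hearts, log2 fold change 1.13, adjusted p = 3.61e-05), Cebpd (59.6 CPM in IL-10 and 28.7 CPM in saline hearts, 1.05, adjusted p = 0.000414) and Klf4 (0.68, adjusted p = 0.00166), and all 3 were called without any 1 heart. These genes are also expressed by cells other than leukocytes. Spi1 did not pass (-0.16, adjusted p = 0.689). In the hearts 6.86% of all genes tested rose and 6.70% fell, the shares to set beside each list here. Of 26 signalling genes, 2 rose and 1 fell (1 rose without IL-10 replicate 2 or 3 or saline replicate 1 or 3 and with upper-quartile scaling or library size alone, none fell without IL-10 replicate 2 or saline replicate 3, and 3 fell without saline replicate 2). Stat5b, which carries the signal of the GM-CSF receptor, was at 47.0 CPM in IL-10 and 31.9 CPM in saline hearts (0.56, SE 0.11, adjusted p = 0.00431) and was called without any 1 heart. Of 11 STAT5 and feedback genes, only Ccnd1 was called, lower by 0.63 (adjusted p = 0.00993, and 0.076 without IL-10 replicate 2), and 1 rose without IL-10 replicate 1 or saline replicate 1, with no filter and by DESeq2. Of 12 GM-CSF-induced genes, 2 rose (3 without saline replicate 3, and 4 with DESeq2 size factors or no filter). They were H2-Aa (1.07, adjusted p = 0.00702, and 0.0741 by DESeq2) and Cd74 (0.83, adjusted p = 0.0137, and 0.0916 by DESeq2), both genes of MHC class II antigen presentation. Csf2 itself was at the floor, and a part of GM-CSF in these levels was not tested. Of the other markers, 2 of 10 fibroblast genes rose (1 without IL-10 replicate 2 or 3 or saline replicate 1 or 3) and 4 fell, with sums of 3612 to 4349 CPM in IL-10 and 4218 to 4967 CPM in saline hearts, and 3 of 10 endothelial genes fell (1 without IL-10 replicate 1, and none without IL-10 replicate 2, saline replicate 2 or saline replicate 3). Their part in the level of Csf1 was not tested.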

How the data were processed

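The authors deposited whole-number counts per gene, 1 table for 6 hearts and 1 for 4 macrophage libraries, and 0 columns were left without a sample. The labels' protocols name poly(A) RNA, the NEBNext Ultra RNA kit, which does not mark strand, and livers as the source of RNA. HISAT2 2.2.1 aligned and featureCounts counted the reads, per the submitters' processing notes, which list both GRCm39 and mm10, so the build behind the counts is not settled. Coordinates are from GENCODE M21 on GRCm38, which named 52081 of 55357 identifiers.

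The tables were fitted apart in R 4.3.3 with edgeR 4.0.16: filterByExpr (minimum count 10, minimum total 15), TMM scaling, the quasi-likelihood test, and Benjamini-Hochberg adjustment over all genes tested. An SE is |log2 fold change| over the root of F. As alternatives, the scaling was replaced by DESeq2's size factors, the upper quartile or no factor, the filter by none or by 1 CPM in every library of a group, and the test by DESeq2 1.42.0 or limma-voom (limma 3.58.1). Further runs had the replicate number as a block, left out each library or the mitochondrial genes, or summed Csf2rb and Csf2rb2. With a macrophage library left out, the spread of the lone library is taken from the other group. The fits were also run on simulated counts with known changes, drawn for independent libraries from the trended dispersion. The outcome is not reported here and does not bear on the spread of the real libraries.

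The genes and lists were chosen with earlier results of these data known. All 8 genes and the related receptor genes are named whether or not they passed, and of each other list up to 4 genes with the smallest p and defining markers. Others are said to be chosen after their values were seen. Some genes that this rule names are not reported here. Replicates of a group differed by more than counting noise, so none was merged. Floors cover counting error only.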

Additional observations from a re-analysis of the deposited data

How the results depend on the processing

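Among the 8 genes, calls in macrophages numbered 5 to 7 under the alternatives of scaling, filter and test, and without 1 library 2 to 6, while genes called in all numbered 734 (without Cd163-/- replicate 1; 1305 without replicate 2) to 3811 without 1 library and 2656 to 5156 under the other alternatives. In hearts 0 of the 8 were called under every alternative run. Without 1 heart 897 (without IL-10 replicate 2; 1012 without saline replicate 1 and 1147 without saline replicate 3) to 1968 genes were called in all, and 1523 to 2248 under the other alternatives. With no filter Il34 (1.04) and Csf1r (-0.52) passed in macrophages. Csf1r turned in hearts with upper-quartile scaling (-0.024) and with library size alone (-0.040). Without 1 library, log2 fold changes in macrophages ran -0.33 to 0.37 for Csf1, -8.96 to -7.84 for Csf2 (as fitted, no bound), 0.63 to 1.64 for Il34, -0.75 to -0.25 for Csf1r, -0.64 to -0.54 for Csf2ra, -2.32 to -1.15 for Csf3r and -0.061 to 0.12 for Flt3l. In hearts they ran -0.35 to 0.0055 for Csf1, -0.41 to 0.16 for Il34, -0.15 to 0.22 for Csf1r, -0.67 to -0.16 for Csf2rb, -0.39 to 0.17 for Csf3r, -0.11 to 0.94 for Flt3 and -0.42 to 0.066 for Spi1. The cause was not tested.

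Whether the replicate numbers pair the libraries is not settled. Deviations of same-numbered libraries from their group means correlated at -0.18, 0.04 and 0.00 in hearts and -0.11 in macrophages. With 2 libraries in a macrophage group the deviations mirror each other, so crossed numbers give 0.11 and the value cannot decide. Crossed hearts ran from -0.12 to 0.13, and these values depend on each other because deviations within a group sum to 0. With the replicate number as a block 1523 genes were called in hearts and 2656 in macrophages, with the same counts of members called, 0 and 5, and among the genes named Il3ra (adjusted p = 0.0544) in hearts and Csf2rb2 (0.0548), Irf4 (0.0633) and Adgre1 (0.0717) in macrophages were no longer called. With that block 0 endothelial markers and 0 related genes fell in hearts, and in macrophages 2 macrophage markers rose and 1 fell, 1 GM-CSF-induced gene rose and 2 fell, and 1 related gene fell. With the macrophage numbers crossed, a fit added after the data were seen, 4595 genes and 6 members were called. Low counts limit Csf2 and Csf3 in hearts, where 3 counts are 0.192 to 0.22 CPM.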
